A study of Mus musculus with 4 samples.

Results

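The transcriptomes compared here were the input libraries of an RNA immunoprecipitation experiment on Lin28b, that is, the RNA of the lysate without antibody capture. The cells were mouse pancreatic cancer-associated fibroblasts (CAFs), named 15376CAFs in the labels, and every culture was made to overexpress Flag-tagged Lin28b. One culture carried the wild-type protein and the other a mutant deficient in RNA binding, and each gave 1 input library, made with a stranded mRNA kit. A culture without either construct was not analysed here, and the labels do not say how the cells were transduced, selected or passaged, so the construct and the history of each culture cannot be told apart. Genes were joined between the wild-type and mutant tables by identifier. The members were the genes listed in both tables with at least 1 FPKM (fragments per kilobase of transcript, scaled to library size) in the higher input, which left 11374 of the 15704 genes in either table. Tigd3 stood just inside this limit at 1.00 FPKM and Cdkl1 just outside it at 0.9997 FPKM.

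Differences are given as log2 of (wild-type input + 1) over (mutant input + 1), so a positive value means a higher level in the wild-type input, and each fold is taken after the same addition of 1 FPKM. There was 1 library per culture, so no difference has a replicate check or a p-value, and a gene was called different where the fold was at least 2. A member below 1 FPKM in 1 input passed the level limit through the other input alone, which fixed the direction of its difference. In bulk RNA, fewer cells of a type and less RNA per cell cannot be told apart. The authors normalised the tables separately, and the summed levels were 321238 (wild-type) and 313359 (mutant). Read totals are unknown. In single-exon pseudogenes, level times length lay within 0.1 of a whole number of steps in 96.9% of 459 genes (step 0.000359, wild-type) and 96.4% of 643 (step 0.000350, mutant). By the ratio of the steps, the libraries differed in depth by a ratio of about 1.03.

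Lin28b is an embryonic RNA-binding protein that blocks maturation of the let-7 microRNAs and binds many mRNAs. CAFs are the stromal fibroblasts of a tumour, usually recognised by collagen, platelet-derived growth factor receptor and smooth muscle actin transcripts. Ductal tumour cells are instead recognised by simple keratins, E-cadherin and foregut transcription factors. Interferons act on neighbouring cells through receptors and transcription factors that induce a large antiviral gene programme.

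Most genes had similar levels in both inputs: 10335 members (90.9%) lay within 2-fold, and the median difference was -0.04. The middle 90% of members lay between -0.93 and 0.96. A fold of 2 or more was reached by 1039 members (9.13%). Of these, 543 (4.77% of members) were higher in the wild-type input, and 496 (4.36%) were higher in the mutant input. A 4-fold difference was reached by 153 members (1.35%) in the wild-type direction and 147 (1.29%) in the mutant direction. Genes that serve every cell differed little. None of the 60 cytosolic ribosomal protein genes, the 13 mitochondrially encoded mRNAs or the 25 housekeeping members passed 2-fold. Among members at 100 FPKM or above in the higher input 8.55% did, and the lists of 13 and 25 are short for such a comparison. The ribosomal protein genes leaned slightly to the wild-type input, with 45 of 60 above 0 and a median of 0.14. Actb was at 1386 and 1261 FPKM, wild-type input first, and Gapdh at 820 and 786. Paired levels below follow this order.

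**Figure D1:**
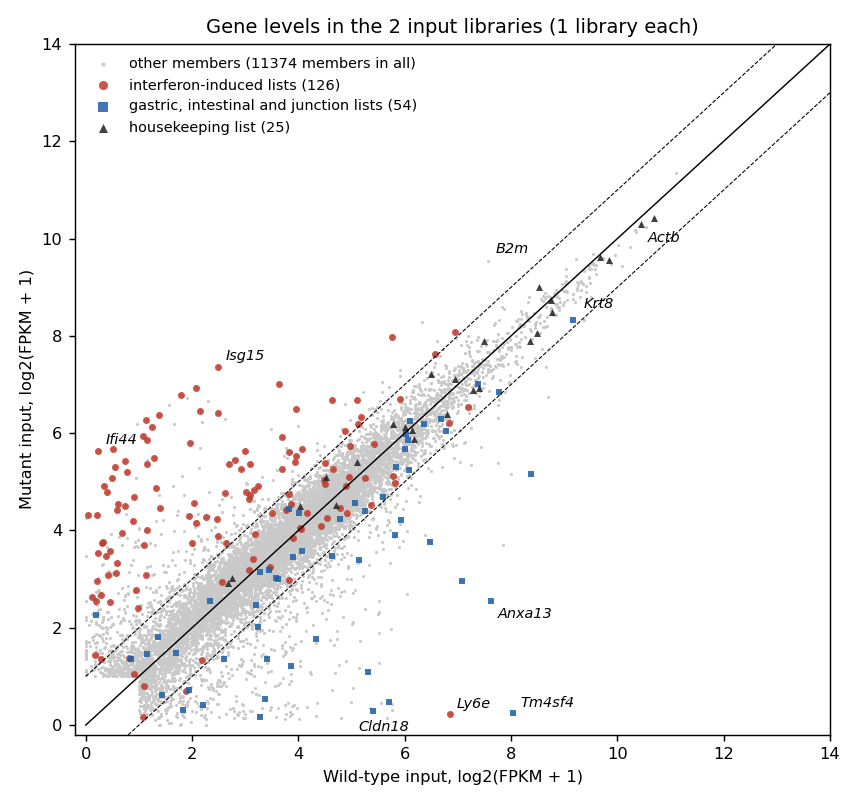
Levels of all 11374 members on log2(FPKM + 1) axes, wild-type input across and mutant input upwards; the solid line is equality and the dashed lines are 2-fold. The 25 housekeeping members (triangles) stay between the dashed lines, 86 of 126 members of the interferon-induced lists (circles) lie above them, and the gastric, intestinal and junction lists (squares) spread below.

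Epithelial transcripts were abundant in both cultures. Krt8, a keratin of simple epithelia, stood at 601 and 494 FPKM, and its partner Krt18 at 395 and 441. Cdh1, which encodes E-cadherin, was at 219 and 114. The fibroblast mRNAs of the label were near the limit of the tables: Col1a1 (collagen I) at 0.722 and 0.404, Pdgfra at 1.33 and 0.860, and Acta2 (smooth muscle actin) at 0.227 and 0.524. Vim, an intermediate filament gene of mesenchymal and many cultured cells, was high in both, at 607 and 547. Other genes of the fibroblast lists were well expressed in both inputs, such as Fn1 (118 and 74.6), Sparc (93.8 and 83.8) and Tpm1 (334 and 243). Since Col1a1, Pdgfra and Acta2 were near the limit, the cultures are named below by their construct only.

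Of 7 keratin members, 2 were higher in the wild-type input and none was higher in the mutant one. Krt7, a ductal keratin, was at 31.7 FPKM against 3.32, a 7.58-fold difference, and Krt19 at 665 against 322 (2.06-fold). Krt23 (6.86 and 8.74) and Krt80 (4.99 and 8.02) were within 2-fold, with the higher level in the mutant input. Among genes of epithelial junctions and polarity, 9 of 26 members were higher in the wild-type input and none was higher in the mutant one, with a list median of 0.58 against -0.04 for all members. Lad1, a basement membrane anchoring protein, was at 51.1 and 0.393 FPKM. Cdhr5, a protocadherin of the brush border, was at 38.5 and 1.14. Desmosomal Dsp was at 88.4 and 12.6 and Dsg2 at 34.3 and 9.43, while the tight junction genes Tjp3, Cldn2, Cldn6 and Marveld3 differed by 6.22-fold, 5.91-fold, 3.77-fold and 8.61-fold. The other 17 members were within 2-fold, among them Cdh1, Cgn (1.86-fold higher in the wild-type input), Tjp1 (81.7 and 71.7) and F11r (66.1 and 56.9).

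Genes of gastric and intestinal differentiation differed most among the epithelial lists: 13 of 28 members were higher in the wild-type input, 1 was higher in the mutant input, and the median was 0.85. Tm4sf4, a four-pass membrane protein of gut and liver epithelium, had the highest difference of all ranked genes, with 263 and 0.194 FPKM. Cldn18, the claudin of gastric tight junctions, was at 41.1 and 0.226. Anxa13, an annexin of intestinal epithelium, was at 195.5 and 4.82. The membrane mucin gene Muc1 was at 134 and 6.77, and the gut galectin gene Lgals4 at 333 and 34.7. Of these 5 genes, Tm4sf4 and Cldn18 were below 1 FPKM in the mutant input, and Lgals4 kept the highest level there. Other gut genes were within 2-fold, among them Lgals2 at 574 and 320, Cdh17 at 109 and 65.1, Apob at 166 and 128 and Vil1 at 37.3 and 20.1. The exception in direction was Ggt1, a glutathione-degrading enzyme gene, at 0.137 and 3.83.

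Several transcription factors of foregut and pancreatic lineages were expressed in both inputs. Pdx1, required for pancreas formation, was at 57.5 and 67.6 FPKM, Hnf4a at 82.9 and 49.6 and Gata6 at 22.8 and 15. In this list, 6 of 17 members were higher in the wild-type input. They were Sox9 (3.93 and 0.363), Creb3l1 (2.65 and 0.339), Sox4 (55.5 and 21.2), Onecut2 (23.7 and 10.1), the intestinal regulator Cdx2 (40.8 and 18.0) and Foxa3 (2.0 and 0.376). Sox2, a regulator of foregut progenitors and stem cells, was the 1 member higher in the mutant input, at 0.859 and 9.45. Sox17 (6.97), Gata5 (4.61) and Onecut3 (1.43) were listed in the wild-type table alone.

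Ductal secreted and transport genes went both ways, with 3 of 16 members higher in the wild-type input, with 4 higher in the mutant one. The water channel gene Aqp1 was at 30.7 and 0.394 FPKM, a 22.8-fold difference. Secreted Wfdc2, a protease-inhibitor family protein, stood at 6.65 and 180, and Lcn2, an iron-scavenging acute-phase protein, at 3.90 and 100.4. Spp1, which encodes osteopontin, was within 2-fold at 141 and 126.

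**Figure D2:**
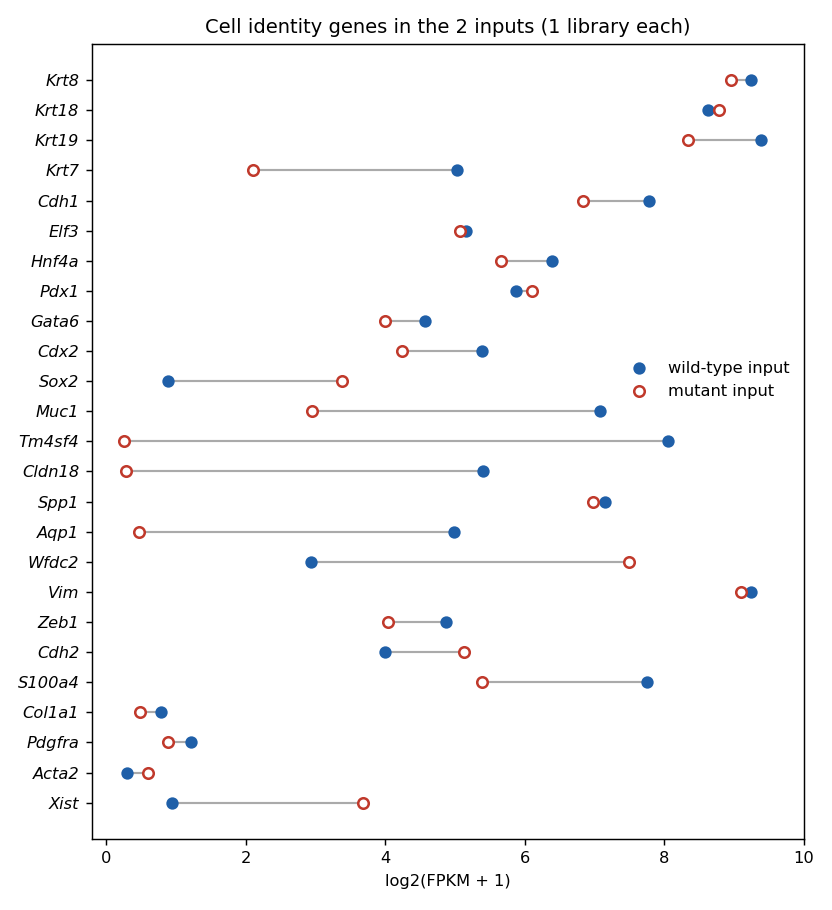
Levels of 25 cell identity genes as log2(FPKM + 1), with the wild-type input as filled points and the mutant input as open points, 1 library each. Krt8, Krt18, Elf3, Pdx1, Spp1 and Vim levels lie close together, Krt7, Tm4sf4, Cldn18, Aqp1 and Muc1 lie far to the right in the wild-type input, and Sox2, Wfdc2 and Xist lie to the right in the mutant input.

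The mesenchymal lists did not move together, with medians from 0.46 (pan-fibroblast) to -0.43 (inflammatory CAF). Of the 10 pan-fibroblast members, 8 lay above 0, and 30% were called higher in the wild-type input against 4.77% of all members. Among 10 pan-fibroblast members, S100a4 (214 and 40.7 FPKM), Fbln2 (47.3 and 11.4) and Col6a1 (4.56 and 0.747) were higher in the wild-type input, and the collagen receptor gene Ddr2 (0.139 and 3.22) was higher in the mutant input. Of the regulators of epithelial-mesenchymal transition and mesenchymal adhesion, 3 of 8 were higher in the mutant input: Zeb2 (3.70 and 11.6), Cdh2, which encodes N-cadherin (15 and 34.1), and Snai2 (0.389 and 1.89). Zeb1 was within 2-fold at 28.3 and 15.5. Thbs1, a matricellular protein and the largest difference in the myofibroblastic CAF list, was at 2.52 and 34. Markers of other cell types were mixed. No acinar gene was a member. Of 5 macrophage and leukocyte members, Cd14, a receptor for bacterial lipopolysaccharide, was at 40.1 and 46.7, and Mrc1 at 25.1 and 20.3, while Laptm5 (0.133 and 1.02), Cd68 (0.704 and 2.45) and Lcp1 (0.274 and 2.01) were low. The part of such cells in the results was not tested. The endothelial list had 1 member, the VEGF receptor gene Flt1, at 0.988 and 11.6, while Cdh5, the defining endothelial cadherin, was listed in the wild-type table alone, at 0.406.

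Members of all 5 interferon-induced lists were higher in the mutant input, in differing numbers. Of the 155 genes on these lists, 126 were members; 86 of these (68.3%) were higher in the mutant input against 4.36% of all members, 2 were higher in the wild-type input, and the median was -1.81. They made up 17.3% of all members higher in the mutant input and 41.5% of those at least 4-fold higher, and 18 of the 25 lowest differences were theirs. Some of them, such as Ifi44, Oas2, Trim30a, Parp12 and Sp100, were below 1 FPKM in the wild-type input. These passed the level limit through the mutant input alone, so the counts lean to the mutant input partly by that limit. No type I, II or III interferon gene of the 13 searched was found in either table, although some genes of the wild-type table alone could not be named. The receptors were present at similar level in both inputs, with Ifnar1 at 20.4 and 16.1 FPKM, Ifnar2 at 26.6 and 21.0, and Ifngr1 at 113 and 73.0. The kinase gene Jak1 was at 30.0 and 33.4. These receptor and kinase genes are on the same lists and count among the 126 members.

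Irf7, a regulator that amplifies the response, was at 2.45 and 109 FPKM, Irf9 at 2.98 and 12.4, and Stat2 at 7.57 and 25.4. Usp18, the feedback inhibitor that removes ISG15 from proteins, was at 1.21 and 56.8. In all, 6 of the 20 members of the transcription factor and signalling list were higher in the mutant input, and the list median was -0.0025. Irf1 (21.2 and 31.9), Irf2 (22.3 and 18.1) and Irf3 (15.3 and 15.5) were within 2-fold.

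Sensors of foreign nucleic acid were higher in the mutant input in 15 of 22 members. The RNA helicases Ddx58 (RIG-I), Ifih1 (MDA5) and Dhx58 (LGP2) were at 6.96, 1.64 and 0.312 FPKM in the wild-type library but at 48.4, 21.1 and 26.5 in the mutant library. Tlr3, the endosomal sensor of double-stranded RNA, was at 1.22 and 15.1, and Cgas, the cytosolic DNA sensor, at 0.968 and 4.29. Adaptor genes differed little, with Mavs at 13.9 and 13.3 and Sting1 at 4.93 and 6.70, and the DNA sensor Aim2 was similar at 28.8 and 29.0. Zbp1, a sensor of Z-form nucleic acid, was listed in the mutant table alone, at 25.5.

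Antiviral effectors formed the largest list, with 52 of 69 members higher in the mutant input. Ifi44 had the lowest difference of all ranked genes, at 0.173 and 48.5 FPKM. The 2-5A synthetase genes, whose products sense double-stranded RNA, were near the floor in the wild-type input, with Oas3 at 1.21 and 76.2, Oas2 at 0.270 and 29.3, and Oas1a at 0.660 and 42.0. Ifit3, which binds viral RNA together with IFIT1, was at 3.44 and 86.6, and Ifitm3, which blocks viral entry, at 1.10 and 60.2. Related genes differed: Ifitm2 was within 2-fold at 145 and 91.6, and Ifitm1 was listed in the wild-type table alone at 7.68. Ly6e, another interferon-inducible surface protein, ran the other way, at 114 and 0.174, and so did Il15, at 2.71 and 0.633. Reads of the Oas1, Ifit, Trim and Apol9 families may be shared between near-identical copies, so the split among copies is uncertain.

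Among the interferon-induced GTPases, which attack intracellular pathogens, 10 of 11 members were higher in the mutant input. Gbp2, Gbp3, Gbp5, Gbp7, Igtp, Irgm2, Gvin1, Tgtp1 and Tgtp2 were below 1 FPKM in the wild-type input. They became members through the mutant input alone, so the direction of their differences follows from the level limit. Gbp3 was at 0.427 and 49.8 FPKM, Igtp at 0.518 and 22.4 and Irgm1 at 23.7 and 102. Gbp4, Gbp6, Gbp9 and Iigp1 were listed in the mutant table alone, at 3.10, 4.26, 6.86 and 9.79. Isg15, a ubiquitin-like protein attached to other proteins, was at 4.63 and 163, and its conjugating enzyme Ube2l6 at 1.44 and 44.1. The list for this system had 5 of 6 members higher in the mutant input.

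MHC class I genes, which present peptides to T cells, were higher in the mutant input in 9 of 16 members. B2m, the invariant chain, was at 188 and 748 FPKM, and the heavy chain gene H2-D1 at 78.8 and 310. Nlrc5, the transactivator of this gene class, was at 0.129 and 4.57. General chaperones of the pathway were within 2-fold, with Canx at 189 and 178 and Pdia3 at 217 and 211. H2-K1, the other classical heavy chain gene of the list, was listed in the wild-type table alone at 62.5, and it was named there by matching positions. Heavy chain genes are highly alike and differ between mouse strains, so the split of reads among them is uncertain.

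**Figure D3:**
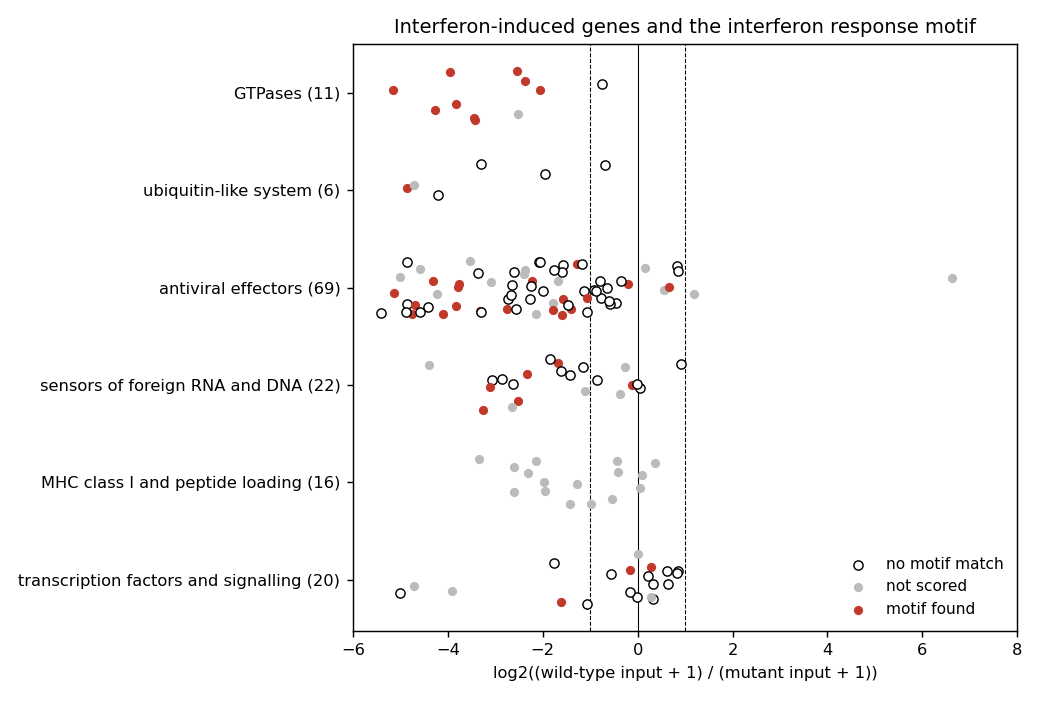
Difference of each interferon-related member by role, with the number of members in brackets; 2-fold is marked by dashed lines. Filled red points carry the motif GAAA, any 2 bases, GAAA within 250 bases before the start, open points do not, and grey points were not scored, which includes genes without a promoter entry and the MHC class I list. The GTPase, ubiquitin-like and effector genes extend to -5, and Ly6e stands alone at 6.62.

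Sequence before the start sites was examined for the interferon response motif, written GAAA, any 2 bases, GAAA and searched on both strands in the 250 bases upstream of each start, because members of one programme moved together. RefSeq promoters (GRCm38.p6) matched 8735 of the 11374 members by symbol. The 4 stretches shown are from interferon-induced genes with some of the largest differences. A match to the motif is in capitals in each, and the stretches are read along the gene's strand. They lie at chr3:142559974-142560033 (plus strand, Gbp3), chr5:120777700-120777759 (minus strand, Oas3), chr4:156200862-156200921 (minus strand, Isg15) and chr7:104465195-104465254 (minus strand, Trim30a).
Gbp3: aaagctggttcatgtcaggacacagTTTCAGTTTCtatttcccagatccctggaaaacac
Oas3: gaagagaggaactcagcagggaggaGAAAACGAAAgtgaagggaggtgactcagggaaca
Isg15: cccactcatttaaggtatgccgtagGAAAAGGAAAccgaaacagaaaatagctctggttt
Trim30a: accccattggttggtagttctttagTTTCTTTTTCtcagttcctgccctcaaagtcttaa
In Gbp3 and Trim30a the match in capitals stands in reverse orientation. In Gbp3 and Isg15, further matches overlap the capitals and run into the lower-case letters.

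The motif was found in 3.46% of all 27025 genes of the promoter table and in 2.66% of members within 2-fold. It was present in 14 of 378 scored genes higher in the wild-type input (3.70%). Of those higher in the mutant input, 53 of 377 carried it (14.1%, exact Clopper-Pearson 95% interval 10.7 to 18.0%). Of the genes on the interferon-induced lists, 33 of 70 that were higher in the mutant input carried it (47.1%), and 5 of 32 that were within 2-fold did (15.6%). The 32 include receptor, kinase and adaptor genes of the pathway, such as Ifnar1, Jak1 and Mavs. Among genes higher in the mutant input on none of these lists, the share was 6.51% (20 of 307). These intervals cover counting error only, and a match describes letters and not a bound site. Related neighbouring genes, such as Oas1a and Oas1g or Ifit3 and Ifit3b, each carried the motif. Such genes were counted separately, and the interval treats them as independent. Irf7, Ifi44, Xaf1 and Ifitm3 had no match in the window.

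Neighbouring genes of this programme were high together. Runs of at least 4 adjacent members past 2-fold in the same direction occurred 9 times, 8 of them higher in the mutant input. The longest, on chromosome 1 (173723427 to 174031810), held 7 genes and pseudogenes of the Ifi200 family, which includes DNA sensors, from Ifi207 to Ifi205. The Oas genes formed a run of 6 on chromosome 5 (120730333 to 120907521), and Trim6 to Trim30d a run of 6 on chromosome 7. On chromosome 12, Ifi27, Ifi27l2a and Ifi27l2b were followed by the protease inhibitor genes Serpina1b (3.27 and 17.2 FPKM) and Serpina1a (0.636 and 3.57). On chromosome 15, 4 Ly6 genes ran together, including Ly6a (3.53 and 73.5) and Ly6c1 (0.693 and 19.2), on the same chromosome as Ly6e with its opposite direction. A run of 4 on chromosome 3 held no gene of the interferon-induced lists: Zbtb10, Zfp704, Pag1 and the fatty acid carrier gene Fabp5 (0.929 and 33.0). The only run higher in the wild-type input was Pilra, Pilrb1, Pilrb2 and Cyp3a13 on chromosome 5.

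Chemokine and cytokine genes split between the cultures, with 6 of 24 members higher in the wild-type input, with 5 higher in the mutant one. The neutrophil attractant gene Cxcl1 was at 2.76 and 104 FPKM, whereas its relatives Cxcl2 (21.3 and 8.17) and Cxcl3 (48.8 and 21.2) ran the other way. Cxcl10, an interferon-inducible chemokine, was at 5.12 and 77.6, and Ccl5 at 2.60 and 25.6. Ccl20 was at 59.0 and 157, and Csf1, the macrophage growth factor, at 95.9 and 236. Higher in the wild-type input were Cxcl16 (11 and 0.123), the interleukin 1 receptor antagonist gene Il1rn (25.5 and 2.84), Ccl9 (13.4 and 2.06) and Pdgfa (20.8 and 3.93). Ccl2 was similar at 86.4 and 77.4. The feedback genes of NF-kB were not higher in the mutant input in any of 23 members, with Nfkbia at 73.5 and 63.4 and Tnfaip3 at 28.8 and 18.8. The 2 past 2-fold, the adhesion gene Vcam1 (130 and 41.2) and the TNF receptor gene Tnfrsf1b (13.1 and 2.54), were higher in the wild-type input.

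An NF-kB motif, written GGG, any 3 bases, TTCC and searched as above, was found in 8 of 16 scored chemokine and cytokine genes, against 5.31% of all promoters. The Cxcl1 and Cxcl10 stretches are shown because both chemokines were higher in the mutant input, at chr5:90891131-90891190 (plus strand) and chr5:92349014-92349073 (minus strand).
Cxcl1: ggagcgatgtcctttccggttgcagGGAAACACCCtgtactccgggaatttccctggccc
Cxcl10: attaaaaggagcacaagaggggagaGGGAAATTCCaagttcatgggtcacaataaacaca
The capitals mark a match to the motif, which is in reverse orientation in Cxcl1. In the Cxcl1 stretch, the lower-case letters after the capitals also fit the motif, in forward orientation. The motif stood in 9.02% of genes higher in the mutant input and 5.82% of those higher in the wild-type input, with exact intervals that overlap (6.33 to 12.4% and 3.68 to 8.68%).

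Among genes higher in the wild-type input, the motif CAAAGTCCA, bound by the HNF4 family, was found in 8 of 378 promoters (2.12%) against 0.313% of members within 2-fold and 0.451% of all promoters. It stood in 3 of 377 genes higher in the mutant input (0.796%), and among the 112 scored genes past 4-fold in the wild-type direction, in 1 (0.893%). Pilra, Pilrb1 and Pilrb2 hold 3 of the 8 matches in near-identical sequence, so these count as 1 sequence. Muc13, a gut mucin gene at 8.46 and 3.03 FPKM, held another. Pilra and Muc13 are shown, from chr5:137836319-137836377 (minus strand) and chr16:33794278-33794336 (plus strand), with the motif in capitals and reversed in Muc13.
Pilra: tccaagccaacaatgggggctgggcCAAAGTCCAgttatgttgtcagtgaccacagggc
Muc13: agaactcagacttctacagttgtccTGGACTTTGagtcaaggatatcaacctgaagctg

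A second group higher in the mutant input was the amino acid stress response, in which ATF4 induces enzymes and transporters when amino acids are short. Of 23 members, 10 were higher in the mutant input and 2 in the wild-type one, with a median of -0.91. Atf4 itself was at 59.2 and 144 FPKM. Its targets Trib3 (1.74 and 17.5), Chac1 (2.28 and 18.9) and Ddit3, which encodes CHOP (5.61 and 24.9), had the largest differences towards the mutant input. Enzymes of serine and one-carbon metabolism took the same direction, with Psph at 12.3 and 45.4, Shmt2 at 27.2 and 66.8 and Mthfd2 at 21.4 and 52.4, as did asparagine synthetase, Asns, at 45.4 and 99.6. Stc2 (5.82 and 0.268) and Ddit4 (29.7 and 8.38) ran the other way. The endoplasmic reticulum stress list had no member past 2-fold among 21, with the chaperone gene Hspa5 at 301 and 293 and Xbp1 at 54.0 and 48.7.

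**Figure D4:**
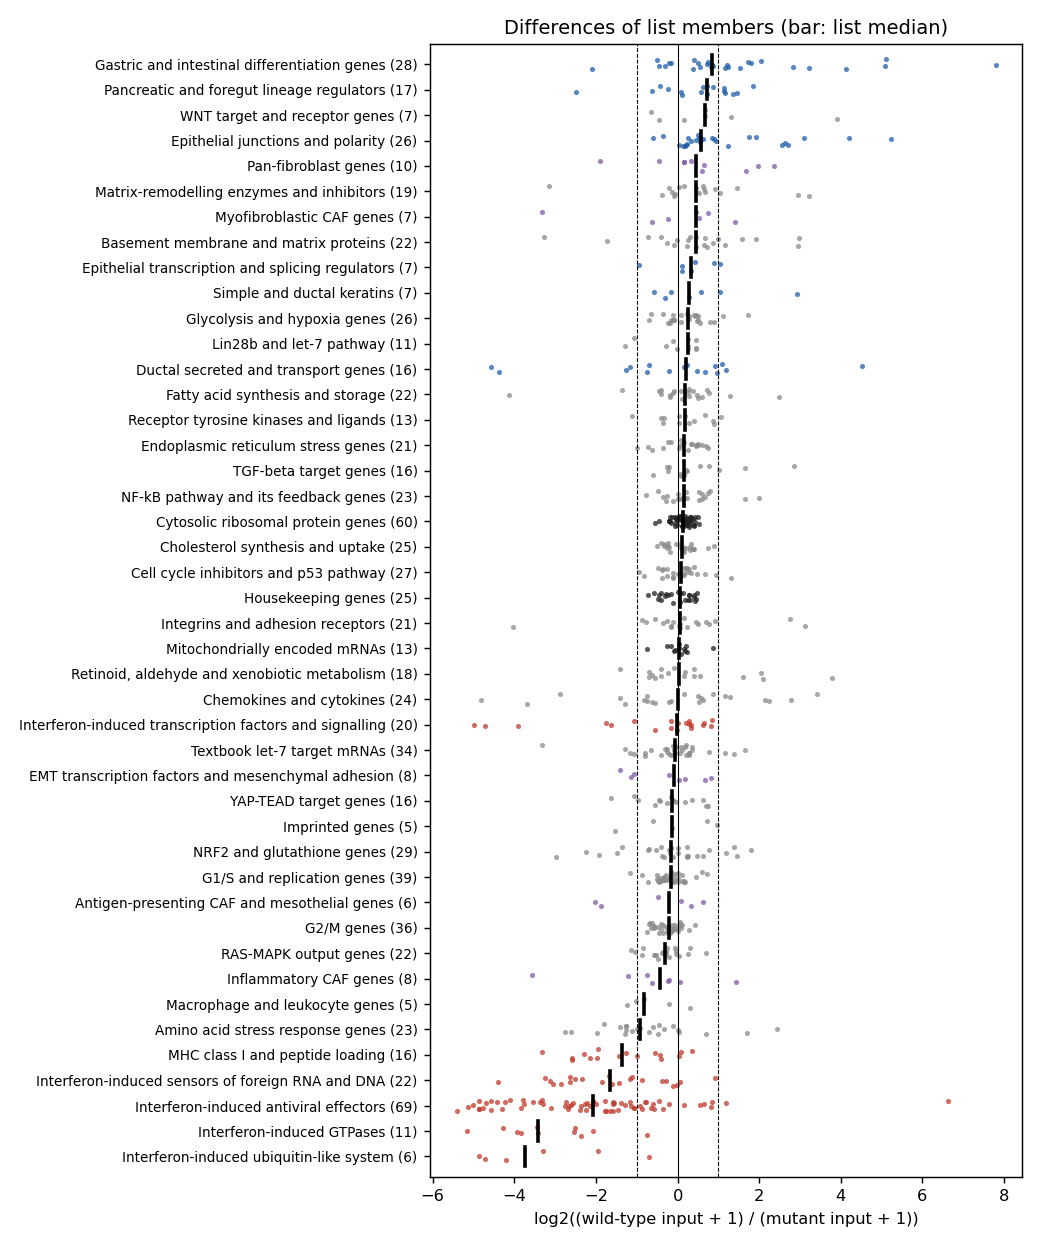
Differences of all members on each list with at least 5 members, with the number of members in brackets, sorted by list median (black bar); dashed lines mark 2-fold. Of the interferon-related lists (red), those of ubiquitin-like genes, GTPases, effectors, sensors and MHC class I genes lie lowest, while that of transcription factors and signalling lies near 0 (-0.0025). The gastric and intestinal list (top, blue) lies highest with a median of 0.85, and ribosomal, mitochondrial and housekeeping lists (black) lie within 2-fold.

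Proliferation genes were mostly within 2-fold and leaned to the mutant input. In the list for G1/S and replication, 1 of 39 members passed 2-fold, Ccnd2, at 39.0 and 88.9 FPKM. In the G2/M list none of 36 did, and among all members 9.13% did. Of the G1/S members, 28 lay below 0 (median -0.17), and of the G2/M members, 29 did (median -0.21). The median of all members was -0.04. Mki67 was at 171 and 170 and Top2a at 153 and 181. Cdkn2a, a tumour suppressor gene often lost in pancreatic cancer, was present at 61.3 and 66.8, and Trp53 was low in both at 1.94 and 1.65.

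Lin28b mRNA was higher in the mutant input, at 13.8 and 30.0 FPKM, a difference of 2.1-fold, and these gene levels do not separate the Flag-tagged construct from the endogenous gene. Textbook targets of let-7 were mixed, with a median of -0.06. Of 34 members, 3 (8.82%) were higher in the wild-type input, against 4.77% of all members. Another 4 (11.8%) were higher in the mutant input, against 4.36%, and Lin28b is itself one of these. Thbs1 had the largest difference on the list, at 2.52 and 34. Hmga2, a chromatin protein repressed by let-7, was at 39.5 and 14.6, Onecut2 at 23.7 and 10.1, and Tgfbr1 at 29.4 and 8.67. Myc was at 50.2 and 88.4 and Igf2bp1 at 29.7 and 25.6, both within 2-fold, and Trim71, a stem cell ubiquitin ligase gene, was at 0.197 and 1.92.

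Signalling outputs differed by list and by gene. Among the TGF-beta target genes, 3 of 16 members were higher in the wild-type input (18.8%, against 4.77% of all members). They included the receptor gene Tgfbr1 and Pmepa1 (28.6 and 13.6 FPKM). The YAP-TEAD targets Ccn1 (36.4 and 114) and Ccn2 (55.8 and 33.0) ran in opposite directions, with Ccn2 within 2-fold. Wnt7b, an epithelial WNT ligand, was at 23.8 and 0.649, and Wnt10a was listed in the wild-type table alone at 24.5. The RAS-MAPK output genes Epha2 (42.5 and 89.2) and Fosl1 (5.24 and 12.8) were higher in the mutant input, and the other 20 of 22 members were within 2-fold. The share higher in the mutant input was 9.09%, against 4.36% of all members. Of the 22 members, 18 lay below 0, with a median of -0.30 against -0.04 for all members.

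Basement membrane and adhesion genes exchanged members. The laminin subunit gene Lamb3 (76.8 and 25 FPKM), whose product anchors epithelia together with integrin beta 4, was higher in the wild-type input, as was Itgb4 itself (10.2 and 0.296). The laminin gene Lamb1 (2.13 and 29.2) and Nid1, a linker of laminin and collagen IV (28.2 and 95.3), were higher in the mutant input. Of the remodelling enzymes, Ctsh (44.3 and 3.84) and Mmp15 (44.9 and 4.89) were higher in the wild-type input and the serine protease gene Htra1 (3.38 and 38.2) in the mutant input.

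Outside the lists, the 25 highest and 25 lowest differences held further genes, some of them near the floor in 1 culture. With list genes counted too, the mutant input was below 1 FPKM in 18 of the 25 highest. The wild-type input was below it in 11 of the 25 lowest. A ranking by ratio favours genes that are low on 1 side. Fam20c, a kinase of secreted proteins, was at 53.2 and 0.240, the actin-bundling gene Fscn1 at 53.1 and 0.342, the collagen-modification gene P3h4 at 45.9 and 0.374, and the membrane protease gene Tmprss2 at 39.9 and 0.272. Anxa6 was at 44.5 and 1.42 and the linker histone gene H1f1 at 230.1 and 12. In the other direction Apol9b was at 0.955 and 72.4, Apol9a at 1.96 and 94.5, and the cyclophilin gene Ppic at 2.16 and 72.1.

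Some transcripts that mark the origin of a culture also differed in level or in listing. Xist, the RNA of the inactive X chromosome, was at 0.936 and 11.9 FPKM, and no Y-linked gene of the list was listed in either table. Of 39 homeobox cluster genes, 16 were listed in the wild-type table alone and none in the mutant table. The highest were Hoxc6 at 16.4, Hoxb8 at 6.07 and Hoxb3 at 3.38, and others were near the floor, such as Hoxa4 at 0.130 and Hoxc8 at 0.0986. The rule by which a gene entered a table is not known from the labels or file headers, so a level for these genes in the mutant input is unknown. Of the 15704 genes in either table, the wild-type table alone held 1277, of which 36 reached 10 FPKM. The mutant table alone held 949, of which 1 did. Among the former, named by position, were Ncam1 (61.1), Syt7 (48.3), Fkbp10 (46.9) and the lactate exporter gene Slc16a3 (44.7).

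Differences also followed position in the genome. Chromosome medians ran from -0.31 on chromosome 1 (652 members) and -0.27 on chromosome 12 (395 members) to 0.20 on chromosome 19 (444 members) and 0.20 on chromosome X (332 members). On chromosome 1, 26.2% of members lay above the median of all members, and on chromosome X 71.4% did. Leaving out the interferon-listed genes left the chromosome 1 median at -0.30.

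Within chromosomes, the running median over 31 neighbouring members moved in steps between long stretches. It ranged from -0.71 to 0.70 over 8312 windows of the 8925 members with at least 5 FPKM in the higher input. Stretches of at least 31 members whose running median stayed at least 0.3 away from the overall median numbered 18, 8 in the wild-type direction and 10 in the mutant direction, and held 953 members (10.7%). On chromosome 9, 72 of the 85 members from Vps26b to Atm (27007771 to 53536740) lay below the overall median, with a median of -0.49. On chromosome 4, 69 of 73 members from Akirin2 to Mrpl50 (34550937 to 49521093) lay above it, with a median of 0.45. A stretch of 40 members on chromosome 8 had 39 above and a median of 0.63. On chromosome 15, 61 of 67 members from Skp2 to Deptor lay above, with a median of 0.38. The stretches were picked by their running median, so counts and medians leaning one way follow from that choice. Of the 953 members in these stretches, 92 passed 2-fold in either direction (9.65%), against 8.43% of all members at this level. Windows overlap and neighbours share members, the shifts were described without a test, and genome copy number was not analysed here.

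**Figure D5:**
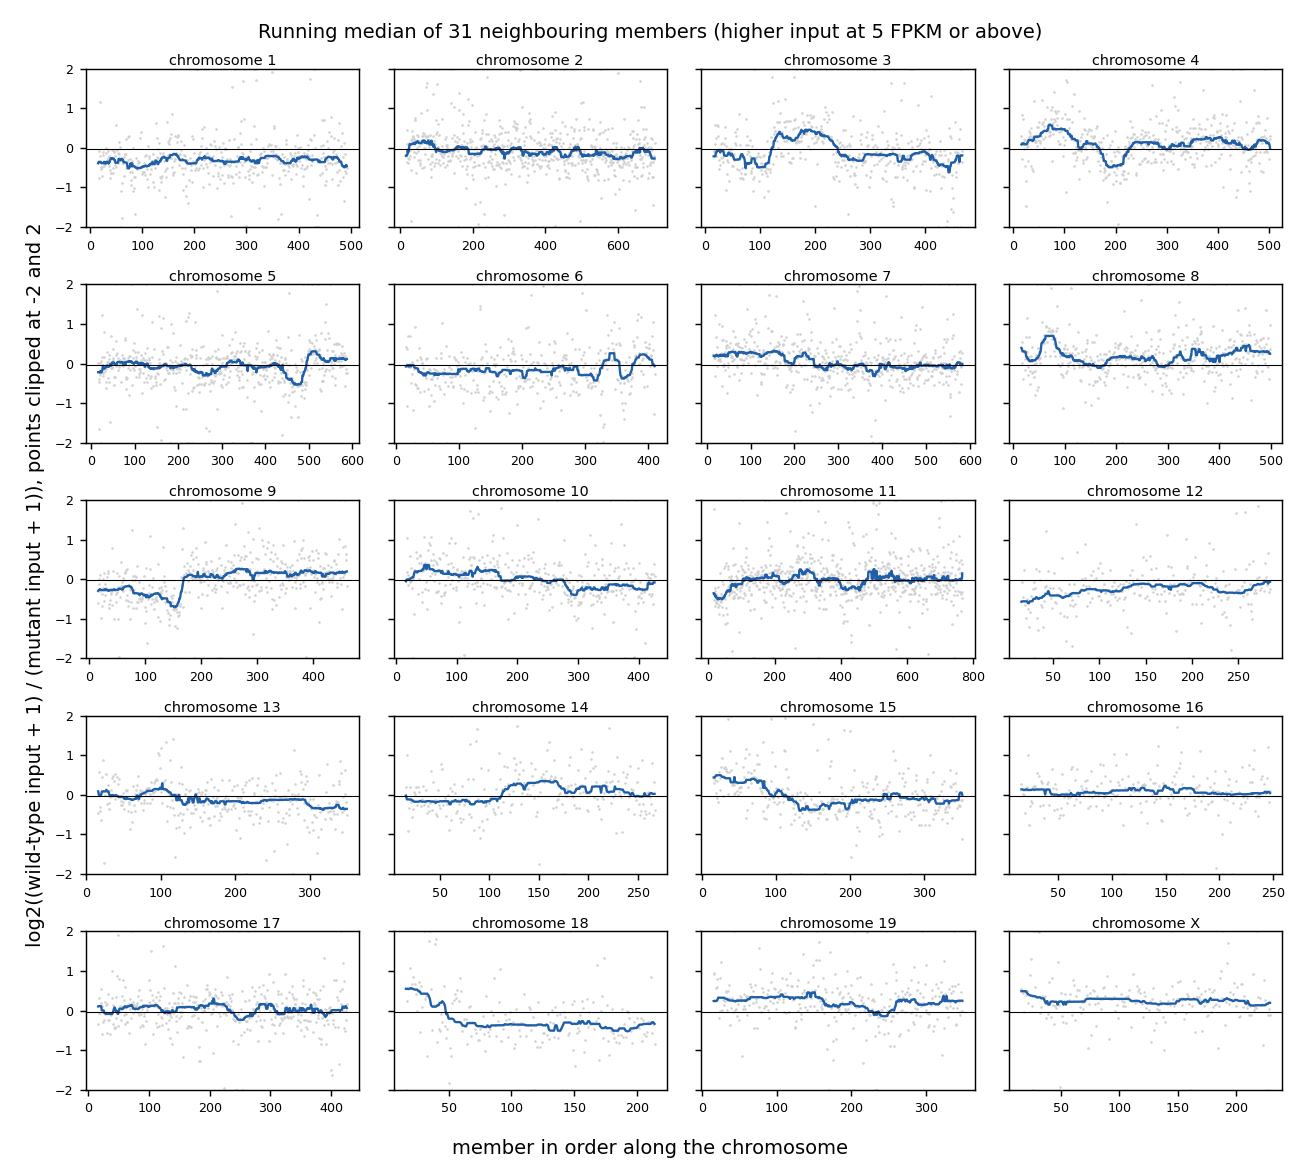
Running median of 31 neighbouring members (blue line) and single members (grey points, clipped at -2 and 2) in order along each chromosome, with the overall median as a black line. The line drops or rises in steps on chromosomes 3, 4, 8, 9, 15 and 18, while on chromosomes 1 and X it stays to one side throughout.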

How the data were processed

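Only the 2 input libraries of the 4 in the series were used; the 2 columns of immunoprecipitated levels and the peak lists were left out. The authors deposited 1 table per construct with a level per gene, with no unit in the file headers; the deposited levels were read as FPKM from their values. The submitters' processing notes list bedtools, HOMER 4.11.1, MACS2 2.2.7.1 and HISAT2 2.1.0, and the builds GRCm38 and mm10, without saying what each was used for.

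Tables were joined by gene identifier and compared with a pseudocount of 1 in Python 3.11.15 with pandas 2.3.3, NumPy 2.4.6 and SciPy 1.17.1. Symbols stood in the mutant table; 868 of the 1277 genes of the wild-type table alone were named by a RefSeq gene of the same build covering at least 0.5 of their joint span, a match that gave the same symbol for 99.1% of 1800 genes with a known one. The scripts were tested on simulated data.

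The members and the 52 gene lists (1398 genes) were chosen with earlier results of these data known. Named genes were the 25 highest and 25 lowest differences at 5 FPKM or above, up to 8 members past 2-fold per list, list-defining genes, up to 3 further abundant members per list, the 5 highest genes of each table alone, and runs of neighbours; others were chosen after their values were seen. The alternatives tried were other pseudocounts, scalings, level limits, gene classes and fold limits.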

Additional observations from a re-analysis of the deposited data

How the results depend on the processing

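With 1 library per culture, no replicate could be left out and precision is unknown; low levels are the least certain. No paired analysis was possible because each group has 1 library and no replicate numbers are shared. With a pseudocount of 5, the counts of genes higher in the wild-type and mutant inputs were 256 and 202, and 8 gastric and intestinal genes were higher in the wild-type input; the medians of chromosomes 12 and X were -0.17 and 0.14, and the share of genes higher in the mutant input with the interferon response motif was 25.9%. With a higher input of at least 10 FPKM these became 300 and 249 genes, 7 gastric and intestinal genes and 21%. A 4-fold limit gave 153 and 147 genes, with the motif in 1.79% and 30.3%. With both inputs at 1 FPKM or above, 292 genes were higher in the mutant input. Chosen after seeing the data, windows of 61 members gave 10 stretches in place of 18, and leaving out interferon-listed genes left 541 and 410 genes. Medians near 0 changed sign: chromosome 9 to 0.014 (centred) and 0.0071 (10 FPKM), chromosome 11 to 0.0025 (centred), and chromosomes 16 and 17 to -0.0035 and -0.0013 (equal column sums). The causes were not tested beyond the fewer or shrunken values each setting leaves. The 50 genes with the highest and lowest differences stayed past 2-fold under all 4 settings of pseudocount and scaling, and 73 to 87 interferon-listed genes passed 2-fold in the mutant direction under the 7 settings of pseudocount, scaling, level and gene class. At 4-fold there were 61.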

Other observations

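Detoxification and lipid genes, not described above, also split between the cultures. Of 29 members of the NRF2 and glutathione list, 4 were higher in the wild-type input, with 5 higher in the mutant one. Nqo1, a quinone reductase and standard NRF2 target, was at 0.256 and 8.92 FPKM (wild-type input first), and Slc7a11, the cystine importer gene, at 3.31 and 19.3. The mu-class transferase genes Gstm1 (46.3 and 131) and Gstm2 (7.49 and 20.7) ran with them, and the pi- and theta-class genes Gstp1 (216 and 78.5) and Gstt1 (14.4 and 3.43) ran the other way. Gclm, another NRF2 target, was similar at 24.1 and 27.1.

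Among desaturase genes, Fads1 (89.5 and 36.3 FPKM) and Fads2 (82.5 and 13.9) were higher in the wild-type input. Scd1 (157 and 95.2), Scd2 (589 and 414) and the synthase gene Fasn (41.2 and 43.8) were within 2-fold. Of 25 genes of cholesterol synthesis and uptake, none passed 2-fold. The glucuronosyltransferase gene Ugt1a7c was at 52.8 and 2.91 and Ugt1a6a at 27.9 and 5.74; these genes share exons, so reads may be split between them. Of 26 glycolysis and hypoxia members, Ndrg1 (118 and 54.1) and Adm (6.58 and 1.31) were higher in the wild-type input, and none was higher in the mutant one.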
